A study of Mus musculus with 23 samples.

Results

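The response of type 1 conventional dendritic cells (cDC1) of the mouse spleen to deletion of Bcl6 was measured on 7 whole-transcript arrays of the series' 23, by comparing 4 arrays of cells labelled Bcl6cKO (cKO) with 3 arrays of cells labelled WT. All probe sets that name a single gene and lay above the array's own median intensity on 3 or more of the 23 arrays were kept, which left 12157 of 19938 genes. In Bcl6-deleted cDC1, 99 genes were higher and 2 were lower, and the leading ones were the chemokine gene Ccl24, the paired receptor genes Pilra and Pilrb1, the actin-capping protein gene Capg and the lectin gene Cd209d. Mean levels lay above wild type for 28 of 29 interferon-stimulated antiviral genes and 9 of 9 interferon-inducible GTPases (62.5% of all genes). Calls of a rise among them numbered 5 and 3 (0.814% of all genes). None of 23 cDC1 identity genes was called in either direction.

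Conventional dendritic cells take up antigen and present it to T cells. The cDC1 lineage depends on IRF8 and BATF3, carries XCR1 and CLEC9A, and is known for presenting antigen of dead cells to CD8 T cells. The cDC2 lineage carries SIRPA and CD11b (encoded by Itgam) and mainly primes CD4 T cells, and plasmacytoid dendritic cells (pDC) produce type I interferon. BCL6 is a zinc-finger repressor of the BTB/POZ family that recruits corepressors such as NCOR and BCOR. It is best known for holding the germinal centre programme in B cells and follicular helper T cells, and its DNA motif resembles the one bound by STAT factors.

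Splenic cDC1, cDC2 and pDC were isolated from WT and Bcl6cKO mice, and the comparisons with other cells below used 3 WT and 5 cKO arrays for cDC2 and the same numbers for pDC. Minced spleens were treated with collagenase and DNase, red cells were lysed, and biotin-labelled cDNA was made with a kit for small RNA inputs. The sources used here give no Cre driver, strain, age or sorting gate, and the labels do not say whether arrays of a group came from separate mice or pools, so the p-values measure the spread between these samples. WT and cKO denote the labels throughout.

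The deposited intensities had array medians between 30.3 and 39.7 on the 7 cDC1 arrays, in 2 separate sets: WT arrays 1 and 2 with cKO arrays 1 and 2 were lower than WT array 3 with cKO arrays 3 and 4. Pairs of arrays within the lower set held identical values for 52 to 104 of the 12157 genes, pairs within the higher set for 450 to 475, and pairs across the sets for 0 or 1. Both genotypes occur in both sets. The main fit has no term for the set, and values within each set are given for some genes and lists. WT array 1 alone had a high level of Xist (10.90 against 4.01 to 4.55 on the other 6). Summed neutrophil marker intensity was highest on cKO array 3 (2819) and WT array 1 (1116) and lay between 265 and 943 on the others. A level here is a probe set's log2 intensity, a difference is the cKO mean minus the WT mean of such levels with its standard error, and a called gene has a Benjamini-Hochberg adjusted p below 0.05 in limma over all 12157 genes.

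The labelled cell type was borne out by its defining genes. In WT cDC1, Xcr1 had a mean level of 9.70 against 4.52 in WT cDC2 and 4.25 in WT pDC, and Naaa had 12.08 against 8.41 and 6.56. The pDC marker Siglech had 5.48 in WT cDC1 and 12.42 in WT pDC. On the array, 14 genes that leukocytes do not use lay between 3.04 and 5.80 on the cDC1 arrays with a median of 4.29, and this range served as the level at which a gene cannot be told from background.

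Bcl6 itself read 8.12, 7.12 and 7.02 on WT arrays 1 to 3 and 8.74, 8.06, 8.46 and 8.29 on cKO arrays 1 to 4. The groups overlapped, and the difference of 0.96 ± 0.35 was not called (adjusted p = 0.598). Under 1 of 37 alternative fits Bcl6 was called higher in cKO (lowest adjusted p = 0.0257). Its difference ranged from 0.77 to 1.31 over all of them. The gene has 1 probe set, whose position relative to the deleted part was not given, so its level does not check the genotype labels. Of the nearest tested genes on either side of Bcl6 on the chromosome, Lpp, which encodes a focal adhesion protein, rose by 2.32 ± 0.31. Rtp4, an interferon-stimulated gene on the other side, had a difference of 1.10 and was not called.

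Almost all calls of the main fit were rises. Of the 12157 genes, 99 were called higher (0.814%) and 2 lower (0.0165%), while 318 and 81 genes had an unadjusted p below 0.05. The median difference was 1.83 among the 99 and 0.06 among all genes, and the smallest called rise was 0.91. Of the 99, 98 exceeded 2-fold, 42 exceeded 4-fold, 15 exceeded 8-fold and 8 exceeded 16-fold. All 101 called genes had no overlap between the groups. Among all tested genes, those called included, 357 had every cKO array above every WT array (2.94%) and 156 had every cKO array below (1.28%). Since their groups do not overlap, the 99 are above 0 in any pair of arrays by construction. Their medians were 1.92, 1.84 and 1.92 in the 3 same-numbered pairs, 1.77 within the lower array set and 1.80 within the higher. These medians describe the same arrays by which the genes were called.

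Many of the risen genes started from background. In 46 of the 99 every WT array lay at or below 5.80, the highest level of the genes silent in leukocytes, and in 86 every cKO array lay above it. For those 46 genes the log2 difference is measured from background, and no fold is given for them singly. The counts by fold above were made over all 99 genes. They include the 46, for which the fold is one over background. Of the 101 calls, 61 held in all 23 fits that each left out 1 array, and 40 were lost in at least 1 of them. Replicate numbers paired the cDC1 arrays, and with the number as a block 138 genes were called higher and 10 lower, with 90 of the 101 calls kept.

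**Figure D1:**
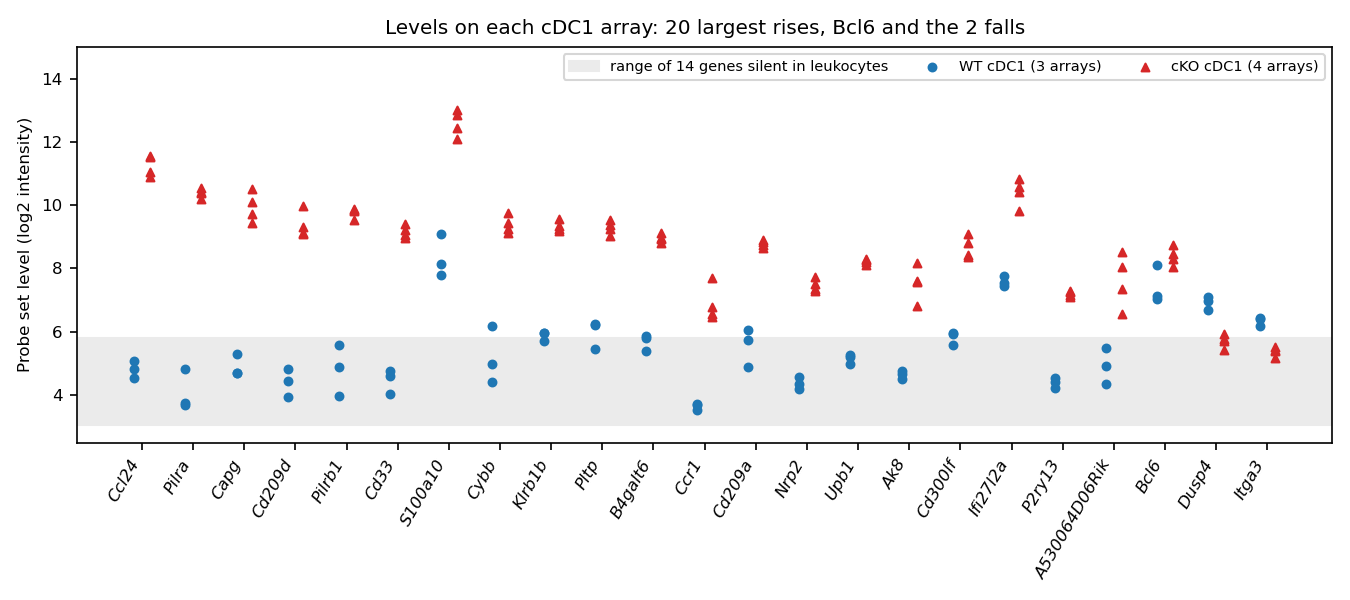
Log2 level on each of the 3 WT (circles) and 4 cKO (triangles) cDC1 arrays for the 20 called genes with the largest rise, for Bcl6 and for the 2 genes called lower; the grey band is the range of 14 genes silent in leukocytes (3.04 to 5.80). Every cKO point lies above every WT point for the 20 rises, the points of Bcl6 overlap, and 12 of the 20 have all their WT points in or below the band.

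Ccl24, which encodes a chemokine that attracts eosinophils through CCR3, had the largest rise of all. Its level was 4.53, 4.83 and 5.07 on the WT arrays and 10.89, 11.06, 11.52 and 11.56 on the cKO arrays. All WT values lay within the range of silent genes and all cKO values far above it, with little spread in either group. The difference was 6.45 ± 0.24 (adjusted p = 2.85e-14), and it was 6.30 within the lower array set and 6.47 within the higher. It was the 1 called gene of 16 chemokines tested. The T-cell attracting chemokine gene Ccl22 had 0.88 and the CXCR3 ligand gene Cxcl9 had 0.31, neither called.

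Of 17 chemokine and migration receptors 2 rose (11.8%, against 0.814% of all genes), Ccr1 and Gpr183, with a list median of 0.09. Nrp2, not on that list, was 1 of the 20 largest rises. Ccr1, a receptor for inflammatory chemokines, read 3.52, 3.69 and 3.71 in WT and 6.56, 7.68, 6.79 and 6.48 in cKO, a rise of 3.24 ± 0.34 (adjusted p = 1.71e-06). Nrp2, a coreceptor for semaphorins and VEGF, read 4.35, 4.20 and 4.57 against 7.74, 7.29, 7.50 and 7.37, a rise of 3.10 ± 0.21 (adjusted p = 1.19e-09). In both genes the WT arrays were at background and cKO arrays were well separated from them. Gpr183, the oxysterol receptor EBI2 that positions dendritic cells in the spleen, rose by 1.15 ± 0.22 from levels of 8.43 to 8.79 and lost its call without WT array 1 (adjusted p = 0.0604). Ccr7, the receptor that guides mature dendritic cells to T-cell zones, had 0.08.

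Some called genes encode receptors for nucleotides or lipid mediators; they come from no list, were picked after their values were seen and stand here as single genes. P2ry13, an ADP receptor, read 4.53, 4.40 and 4.23 in WT and 7.25, 7.15, 7.30 and 7.10 in cKO, a rise of 2.81 ± 0.27 (adjusted p = 5.53e-07). Its chromosomal neighbour P2ry12, also an ADP receptor, rose by 1.37 ± 0.31 and lost its call in 4 fits that left out 1 array (adjusted p 0.11 to 0.252). The ATP-gated channel gene P2rx5 rose by 1.85 ± 0.37, and its call was lost without WT array 1 or WT array 2. Cysltr1, a receptor for cysteinyl leukotrienes, rose by 2.22 ± 0.33. Ptger2, a receptor for prostaglandin E2, rose by 1.20 ± 0.25, and its call was lost with the replicate block (adjusted p = 0.0795) and without WT array 1, WT array 2 or cKO array 3.

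Paired and inhibitory receptors of myeloid cells held the largest share of calls of any receptor list. Of 22 genes tested for Siglecs and paired or inhibitory receptors, 8 rose (36.4%, against 0.831% of all genes called), none fell, and the list's median difference was 0.35. Pilra, an inhibitory receptor with an ITIM motif, read 3.76, 4.83 and 3.69 in WT and 10.39, 10.18, 10.55 and 10.43 in cKO. WT cells were at background and the 4 cKO arrays lay within a narrow range, with a difference of 6.29 ± 0.41 (adjusted p = 1.17e-09). Pilrb1, its activating partner, read 5.58, 3.98 and 4.88 against 9.88, 9.52, 9.83 and 9.84, a rise of 4.95 ± 0.33. Pilrb2, a further activating member, rose by 2.31 ± 0.33. The 3 genes are neighbours on the chromosome and near copies of each other, so probes of one may read RNA of another.

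Cd33, a sialic acid-binding Siglec, read 4.77, 4.61 and 4.04 in WT and 9.41, 9.04, 9.20 and 8.96 in cKO, a rise of 4.68 ± 0.27 (adjusted p = 9.81e-11). Cd300lf, an inhibitory receptor for ceramide and phosphatidylserine, read 5.94, 5.97 and 5.57 against 9.08, 8.36, 8.80 and 8.43, a rise of 2.84 ± 0.30 (adjusted p = 1.71e-06). Both were near background in WT cells and far above it in all 4 cKO arrays. Cd22, a Siglec best known from B cells, rose from 6.17, 5.91 and 6.60 to 8.65, 8.24, 8.48 and 8.43, by 2.22 ± 0.27 (adjusted p = 1.43e-05). It was the 1 called gene of 11 B-cell genes: Cd79a read 3.74 in WT and 4.17 in cKO, Pax5 4.90 and 5.06, and the summed B-cell list lay between 475 and 1197 in WT and between 668 and 1067 in cKO. Lair1, a collagen receptor abundant in pDC, rose by 1.23 ± 0.22. The pDC-enriched receptor gene Cd300c had −1.18 and was not called.

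C-type lectins followed the same pattern. Of 27 tested, 6 rose (22.2%, against 0.814% of all genes), none fell, and the median difference was 0.27. Cd209d, a member of the DC-SIGN family of sugar-binding receptors, read 3.95, 4.43 and 4.83 in WT and 9.13, 9.09, 9.96 and 9.32 in cKO, a rise of 4.97 ± 0.37 (adjusted p = 5.03e-09). The family member Cd209a read 5.76, 4.89 and 6.07 against 8.63, 8.74, 8.84 and 8.89, a rise of 3.20 ± 0.26 (adjusted p = 2.57e-08), and Cd209e rose by 2.36 ± 0.36. The 3 are adjacent on the chromosome, and their paralogs Cd209b and Cd209c had 0.29 and 0.37 without a call. WT cDC1 were near or at background for all 3 risen members.

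Klrb1b, an inhibitory NK-type lectin, read 5.96, 5.70 and 5.95 in WT and 9.19, 9.25, 9.56 and 9.34 in cKO, a rise of 3.46 ± 0.24 (adjusted p = 1.57e-09). None of 7 NK-cell genes tested was called. The summed intensity of 10 NK genes was 421 to 643 in WT and 646 to 809 in cKO, with the defining gene Ncr1 at background in both (4.48 and 4.42), and the part of such cells in the Klrb1b result was not tested. In the Dectin-2 and DCIR cluster, Clec4b2 rose by 1.85 ± 0.30, Clec4a2 by 1.72 ± 0.34 and Clec4n by 1.69 ± 0.38. Clec4a2 lost its call without WT array 1 (adjusted p = 0.138). Clec4n lost it in 5 fits that left out 1 array and with the replicate block (adjusted p = 0.0844). Clec7a, the beta-glucan receptor Dectin-1, had −0.52 and was not called.

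**Figure D2:**
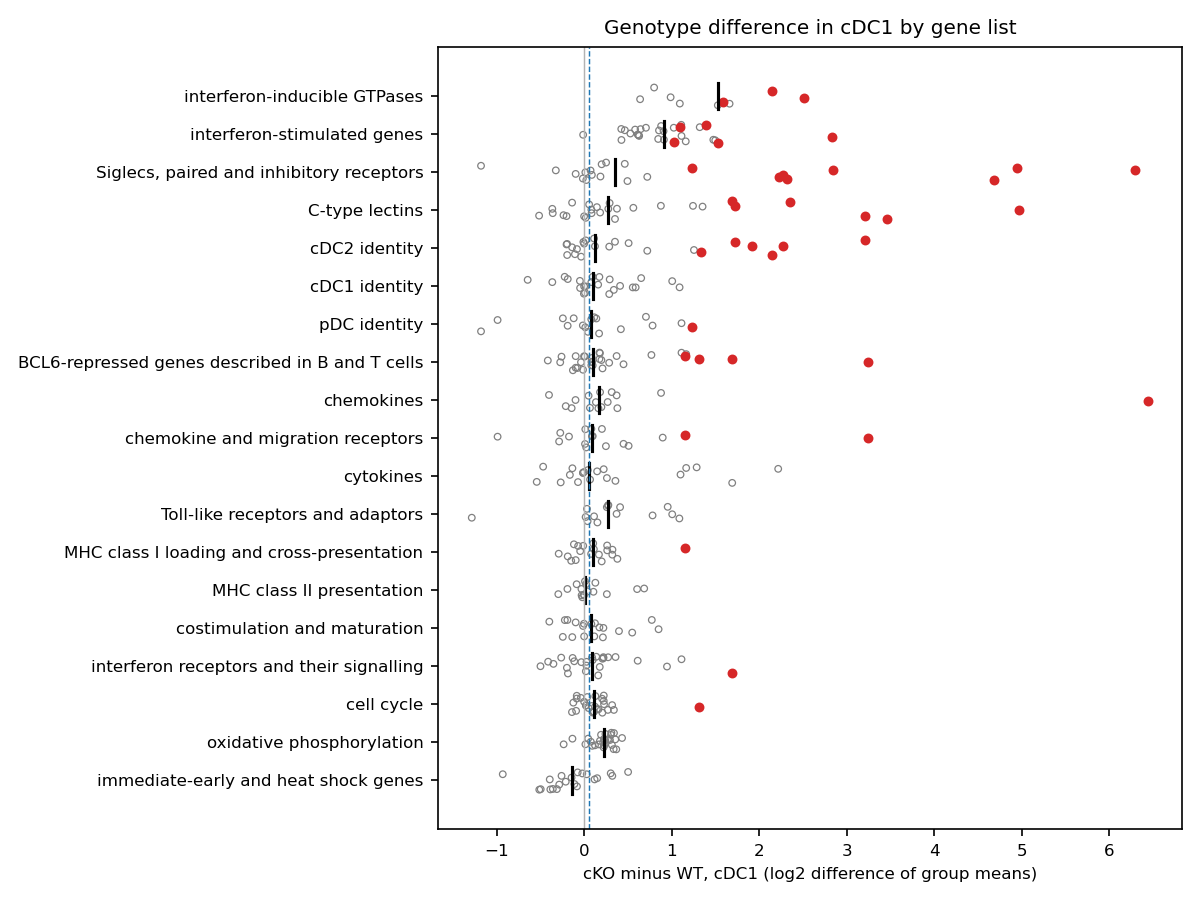
Difference between cKO and WT in cDC1 (log2) for each gene of 19 lists; filled points are called, open points are not, thick bars are list medians and the dashed line is the median of all genes (0.06). The interferon lists are shifted as a whole with medians of 0.90 and 1.53, whereas the receptor and identity lists have medians of 0.35 or less and some genes far to the right.

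No change in cDC1 identity genes was called. Of 23 identity genes tested none was called, and the median difference was 0.09. An unadjusted p below 0.05 was found for 4 of the 23, against 399 of all 12157 genes. In 2 of the 23 every cKO array lay above every WT array (2.94% of all genes). Xcr1 read 9.70 in WT and 9.71 in cKO, Clec9a 10.97 and 11.05, Irf8 11.46 and 11.55, and Batf3, the AP-1 factor needed for cDC1, 9.82 and 10.38. The largest values without a call were 1.09 for Cd226 and, for Tlr12, 6.79 in WT against 7.79 in cKO, and the lowest was −0.65 for Cd8a. Absence of a call does not show that these genes did not differ.

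Part of the cDC2 identity list rose. Of 23 cDC2 genes tested, 6 were called higher (26.1%, against 0.814% of all genes) and none lower. The list median was 0.12. It ranged from −0.01 to 0.37 when 1 array was left out (lowest without cKO array 3, highest without WT array 3). Sirpa, the receptor for CD47 that separates cDC2 from cDC1, read 6.57, 6.19 and 6.03 in WT and 8.49, 8.35, 8.67 and 8.63 in cKO. The groups were well apart and the rise was 2.27 ± 0.40 (adjusted p = 0.00255), or 2.04 and 2.61 within the lower and higher array sets. Itgam, the CD11b integrin chain, read 5.45, 5.57 and 5.37 against 7.70, 7.52, 7.69 and 7.51, a rise of 2.14 ± 0.28 (adjusted p = 5.36e-05). Zeb2, a repressor that favours cDC2 and pDC over cDC1, read 4.66, 4.51 and 4.53 against 6.29, 6.31, 6.77 and 6.56, a rise of 1.92 ± 0.22 (adjusted p = 6.33e-06). The other called members were Cd209a and Clec4a2, given above, and Csf1r, the receptor for M-CSF, which rose by 1.33 ± 0.26 and lost its call without WT array 2 (adjusted p = 0.0771).

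The remaining 17 cDC2 genes were not called. Irf4, a transcription factor of cDC2, read 5.40 and 5.36, Clec10a 3.54 and 3.89, Mgl2 4.59 and 4.45, and Klf4 8.44 and 8.36 in WT and cKO. The WT cDC2 level of Irf4 was 8.41. In bulk samples a few cells with much RNA of a gene and many cells with little cannot be told apart.

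For each risen gene the level in cKO cDC1 was set beside the level of the same gene in WT cDC2. In 56 of the 99 it exceeded the WT cDC2 mean by over 1 log2 unit, in 35 it lay within 1 unit of it, and in 8 it was lower by over 1 unit. Among all genes the counts were 599, 11149 and 409 of 12157. Sirpa reached 8.53 against 10.69 in WT cDC2, Cd209a 8.78 against 10.49 and Tgm2, a protein-crosslinking transglutaminase, 7.62 against 9.92. Cybb reached 9.40 against 9.55, Cd300lf 8.67 against 8.79 and Cd22 8.45 against 8.57. Ccl24 at 11.26 against 4.79 and Pilra at 10.39 against 5.51 exceeded the WT cDC2 level.

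**Figure D3:**
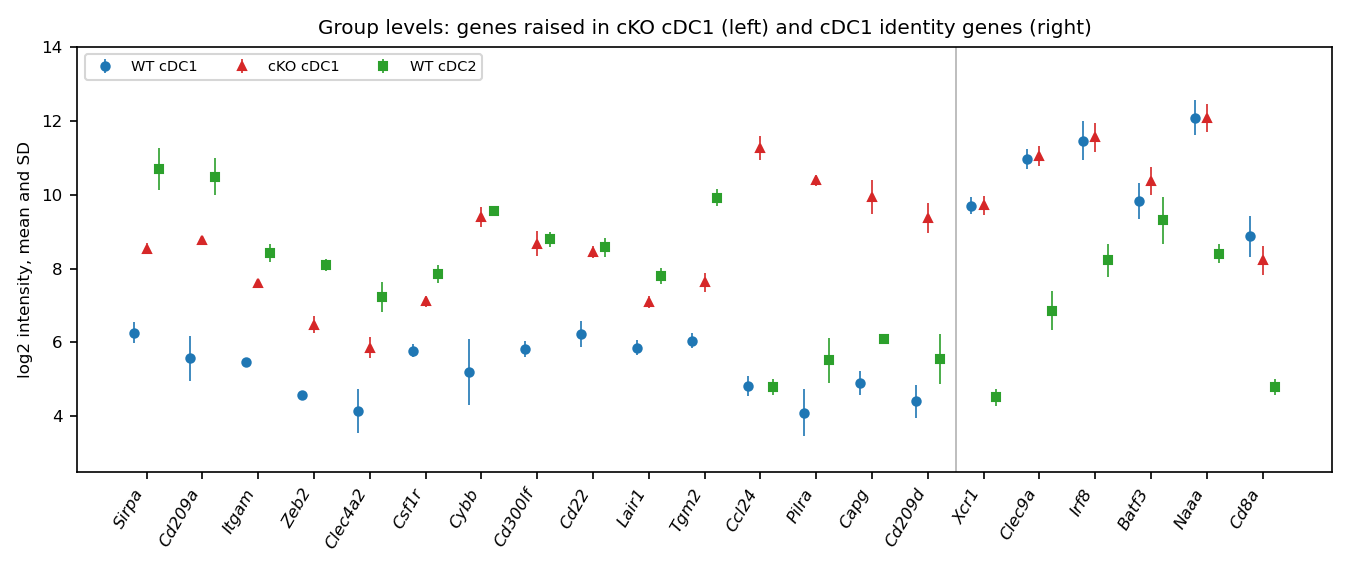
Mean log2 level and SD of WT cDC1 (3 arrays), cKO cDC1 (4) and WT cDC2 (3) for 15 genes called higher in cKO cDC1 (left of the line) and 6 cDC1 identity genes (right). Sirpa and Cd209a in cKO cDC1 lie between the other groups, Cybb, Cd300lf and Cd22 lie near the WT cDC2 level, Ccl24 and Pilra lie above both, and of the identity genes Batf3 and Cd8a differ by 0.55 and −0.65 without a call while the other 4 nearly coincide.

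The oxidase and redox genes had 1 large change. Cybb encodes gp91phox, the membrane protein with which phagocytes make superoxide. It read 6.17, 4.42 and 4.99 in WT and 9.77, 9.24, 9.45 and 9.13 in cKO. WT levels were low and spread widely while cKO levels were close together, and the rise was 4.20 ± 0.35 (adjusted p = 2.57e-08). None of the other 6 oxidase genes tested was called. The partner subunit gene Cyba had 0.36, the cytosolic subunits Ncf1 and Ncf4 −0.14 and 0.24, and Rac2 1.09. Other called genes with redox roles, picked after their values were seen, were Slc7a11, the cystine transporter (2.13 ± 0.23), Blvrb, biliverdin reductase B (1.81 ± 0.33; adjusted p = 0.0532 without WT array 2), and Xdh, xanthine dehydrogenase (1.56 ± 0.22).

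Actin and calcium-binding proteins included some of the highest levels reached. Capg, a protein that caps actin filaments, read 4.71, 4.71 and 5.29 in WT and 9.72, 9.44, 10.52 and 10.09 in cKO. S100a10, the light chain partner of annexin A2, read 7.79, 8.16 and 9.10 against 12.09, 12.45, 12.99 and 12.84. Capg went from background to a clear signal, while S100a10 was already measured in WT cells. The rises were 5.04 ± 0.39 (adjusted p = 7.69e-09) and 4.24 ± 0.48 (adjusted p = 5.21e-06). They were the 2 called of 22 S100, annexin and actin-capping genes (9.09%, against 0.831% of all genes). Anxa2 had −0.13 and S100a4 −0.11. The neutrophil proteins S100a8 and S100a9 read 5.45 and 6.42 in WT and 6.45 and 7.30 in cKO without a call, with S100a8 at −0.96 within the lower array set and 3.39 within the higher.

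Further called genes of the cytoskeleton and of cell contact, again picked after their values were seen, were Dock1, an activator of Rac (2.42 ± 0.30), Arap2 (2.03 ± 0.34), Hip1 (1.76 ± 0.29), Cass4 (1.65 ± 0.30) and Ctnnd2 (1.62 ± 0.31). Ctnnd2, a delta-catenin, lost its call without WT array 2 (adjusted p = 0.0956). Cd164, a sialomucin, rose by 2.28 ± 0.18 and Hbegf, a ligand of the EGF receptor, by 2.38 ± 0.39.

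Lipid handling was represented by single genes and not by a list. Pltp, the phospholipid transfer protein, read 5.46, 6.25 and 6.23 in WT and 9.39, 9.03, 9.52 and 9.25 in cKO, a rise of 3.32 ± 0.40 (adjusted p = 1.22e-05). It was the 1 called of 19 sterol and lipid genes. B4galt6, a synthase of the glycosphingolipid lactosylceramide, read 5.86, 5.82 and 5.41 against 8.97, 8.80, 9.14 and 8.92, a rise of 3.26 ± 0.24 (adjusted p = 2.76e-09). Both were separated by over 2 log2 units between the nearest arrays. Lpcat2, which makes platelet-activating factor, rose by 2.43 ± 0.27, and Pparg, a lipid-sensing nuclear receptor, by 1.21 ± 0.23. Pla2g4a, the cytosolic phospholipase that frees arachidonic acid, rose by 1.49 ± 0.35 and lost its call in 5 fits that left out 1 array (adjusted p 0.117 to 0.338).

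The remaining genes among the 20 largest rises had mixed roles. Upb1, an enzyme of pyrimidine breakdown, read 5.20, 5.26 and 4.97 in WT and 8.30, 8.11, 8.28 and 8.22 in cKO, a rise of 3.08 ± 0.22 (adjusted p = 1.66e-09). Ak8, an adenylate kinase, read 4.50, 4.67 and 4.75 against 7.57, 6.80, 8.17 and 7.59, a rise of 2.89 ± 0.47 (adjusted p = 0.00104). A530064D06Rik read 4.36, 4.93 and 5.49 against 7.36, 6.56, 8.52 and 8.05, a rise of 2.70 ± 0.52 (adjusted p = 0.006). These genes were all at background on every WT array. A530064D06Rik was the 1 of the 20 genes with the largest rise whose call was lost in a fit without 1 array (adjusted p = 0.0771 without WT array 1).

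Interferon-inducible GTPases disrupt pathogen-containing vacuoles. Of 9 tested, 9 had every cKO array above every WT array (2.94% of all genes), 3 were called higher (33.3%, against 0.814% of all genes) and the median difference was 1.53 (0.06 over all genes). Gbp7 read 4.34, 4.46 and 5.85 in WT and 7.46, 6.87, 7.78 and 7.45 in cKO, a rise of 2.51 ± 0.43 (adjusted p = 0.00173). Gbp3 read 5.07, 4.93 and 4.68 against 7.59, 7.55, 6.42 and 6.57, a rise of 2.14 ± 0.37 (adjusted p = 0.00165). Gbp8 rose by 1.59 ± 0.27 (adjusted p = 0.00142). Gbp3 was higher on the cKO arrays of the lower set than on those of the higher set, and Gbp7 had its highest WT value on array 3. Gbp2b, not on that list, rose by 2.25 ± 0.26. Guanylate-binding proteins are near copies in a gene cluster, so their probes may share RNA.

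Interferon-stimulated antiviral genes were shifted by a smaller amount. Of 29 tested, 28 had a difference above 0 (96.6%, against 62.5% of all genes). In 16 every cKO array lay above every WT array (2.94% of all genes). An unadjusted p below 0.05 was found for 21, against 399 of all 12157 genes. The called genes were 5 (17.2%, against 0.814% of all genes called higher), and the list median was 0.90. Ifi27l2a, an interferon-induced mitochondrial protein gene, read 7.45, 7.54 and 7.75 in WT and 9.82, 10.41, 10.57 and 10.81 in cKO, a rise of 2.83 ± 0.33 (adjusted p = 1.06e-05). The others called were the RNA sensor Ddx58 (1.53 ± 0.35), the nucleic acid sensor Zbp1 (1.39 ± 0.29), Xaf1 (1.10 ± 0.26) and Oasl2 (1.03 ± 0.24). None of those 4 calls held in all 23 fits that left out 1 array. Ddx58 lost its call in 6 of the 23 fits that left out 1 array (adjusted p 0.0936 to 0.157), Zbp1 in 3 (0.0604 to 0.246), Xaf1 in 9 (0.0507 to 0.229) and Oasl2 in 5 (0.0762 to 0.304). Xaf1 also lost it with the replicate block (adjusted p = 0.13).

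The list medians held in each subset of arrays. Antiviral genes had medians of 0.98, 0.75 and 0.78 in the 3 same-numbered pairs, and 0.86 and 0.71 within the lower and higher array sets. The GTPases had 1.21, 1.93 and 1.10 in the pairs and 1.65 and 0.91 within the sets. Without 1 array the antiviral median ranged from 0.77 to 1.13 and the GTPase median from 1.09 to 1.82. Both were lowest without WT array 2. The median level of the antiviral list was 6.66, 5.74 and 6.74 on the WT arrays. On the cKO arrays it was 6.89, 6.55, 7.42 and 7.26, so cKO array 2 lay below WT arrays 1 and 3. Of 26 genes for interferon receptors and their signalling, 1 was called: Socs2, a suppressor of cytokine signalling, which rose by 1.69 ± 0.31. Stat2 had 0.61, Irf9 0.36, Ifnar1 −0.35 and Ifngr1 −0.27, none of them called.

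**Figure D4:**
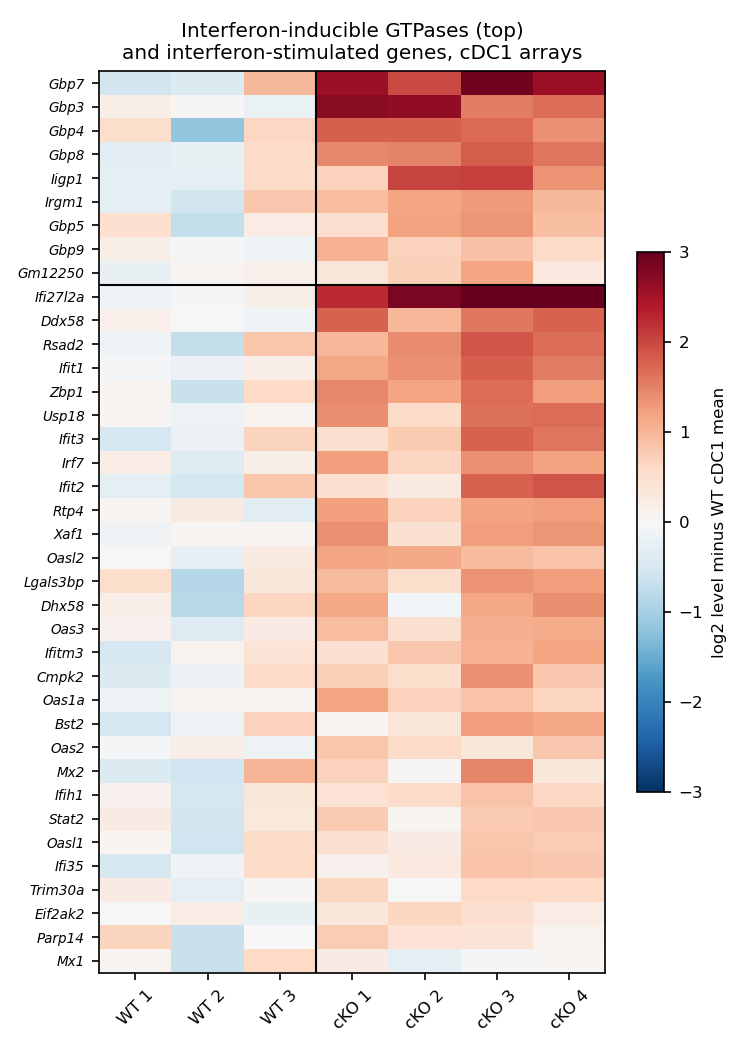
Log2 level minus the WT cDC1 mean on each of the 7 cDC1 arrays for 9 interferon-inducible GTPases (above the horizontal line) and 29 interferon-stimulated genes. The cKO columns are red for most genes, with Mx1 the 1 antiviral gene whose mean is not above WT, and many genes are blue on WT array 2 and pale red on WT array 3.

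Promoters of the risen genes were searched in RefSeq windows of equal length (GRCm38.p6) across each gene's start; 77 of the 99 risen genes and 9702 of the 12157 tested had an entry. The core of the interferon response element (GAAA, any 2 bases, then GAAA, on either strand) was found for 12 of the 77 (15.6%) and for 3.7% of all genes, for 12 of 20 interferon-stimulated genes (60%) and for 5 of 5 GTPases with an entry. The BCL6 core TTCCTNGAA, on either strand, was found for 4 of the 77 (5.19%: Arid5b, Ctsc, Gbp7 and Zfp719) and for 1.47% of all. Each such match is also a match to the STAT-type pair TTCNNNGAA, present for 11.7% of the risen genes and 8% of all, and of the 77 only Zfp719 held TTCCTAGAA (0.412% of all). To show where such letters lie, windows of 5 risen genes with matches are printed 5′ to 3′ on the gene's strand, with matches in capitals. They are Gbp7 (chr3:142530086-142530385, plus strand), which holds both kinds of match, Gbp3 (chr3:142559794-142560093, plus), with 2 overlapping interferon matches, Cybb (chrX:9469275-9469574, minus), with 3 interferon matches, Pilra (chr5:137836229-137836528, minus), with 1, and Zfp719 (chr7:43579336-43579635, plus).
Gbp7: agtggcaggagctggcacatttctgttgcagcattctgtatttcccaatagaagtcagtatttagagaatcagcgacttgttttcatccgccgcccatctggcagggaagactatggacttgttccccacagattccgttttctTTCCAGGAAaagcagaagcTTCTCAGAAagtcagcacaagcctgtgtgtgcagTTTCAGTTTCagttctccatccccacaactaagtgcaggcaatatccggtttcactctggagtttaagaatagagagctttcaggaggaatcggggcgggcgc
Gbp3: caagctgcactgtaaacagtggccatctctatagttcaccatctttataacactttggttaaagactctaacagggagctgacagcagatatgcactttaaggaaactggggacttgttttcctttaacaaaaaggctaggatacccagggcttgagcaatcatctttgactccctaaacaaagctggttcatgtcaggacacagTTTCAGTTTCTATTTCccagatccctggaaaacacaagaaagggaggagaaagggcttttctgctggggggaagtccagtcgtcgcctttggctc
Cybb: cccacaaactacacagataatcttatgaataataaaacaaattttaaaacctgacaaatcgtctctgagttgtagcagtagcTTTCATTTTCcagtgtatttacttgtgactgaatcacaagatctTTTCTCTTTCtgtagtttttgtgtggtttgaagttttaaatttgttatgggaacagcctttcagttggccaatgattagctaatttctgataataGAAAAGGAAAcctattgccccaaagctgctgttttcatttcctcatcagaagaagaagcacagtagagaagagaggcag
Pilra: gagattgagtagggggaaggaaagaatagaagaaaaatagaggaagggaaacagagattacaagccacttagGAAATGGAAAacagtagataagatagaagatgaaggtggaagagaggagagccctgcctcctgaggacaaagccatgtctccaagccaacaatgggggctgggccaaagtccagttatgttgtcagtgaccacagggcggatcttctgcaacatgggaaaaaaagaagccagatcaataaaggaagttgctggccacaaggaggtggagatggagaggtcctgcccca
Zfp719: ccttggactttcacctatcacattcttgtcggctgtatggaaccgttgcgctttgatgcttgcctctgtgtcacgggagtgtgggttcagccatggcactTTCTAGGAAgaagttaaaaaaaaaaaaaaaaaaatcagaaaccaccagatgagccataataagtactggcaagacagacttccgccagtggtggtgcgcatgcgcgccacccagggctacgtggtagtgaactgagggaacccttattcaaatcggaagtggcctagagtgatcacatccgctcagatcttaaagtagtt

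A match is a description of these letters and not of binding. Zfp719, a zinc-finger gene, rose by 1.83 ± 0.33, and its call was lost without WT array 2 (adjusted p = 0.0677). Arid5b, a chromatin regulator, rose by 1.54 ± 0.29. Ctsc, the protease that activates granule enzymes, rose by 1.24 ± 0.29, and lost its call with the replicate block (adjusted p = 0.0681) and in 10 fits that left out 1 array.

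Genes described as BCL6-repressed in B and T cells gave 4 calls. Of 31 tested, 4 rose (12.9%, against 0.814% of all genes), none fell, and the median difference of 0.09 was close to the 0.06 of all genes. These were Ccr1, Socs2 and Gpr183, given above, and the cyclin gene Ccnd2, which read 7.93, 7.36 and 8.41 in WT and 8.82, 9.35, 9.41 and 9.24 in cKO, a rise of 1.31 ± 0.27 (adjusted p = 0.0134). Ccnd2 lost its call with the replicate block (adjusted p = 0.0762) and without WT array 1, WT array 2 or cKO array 3 (adjusted p 0.0643 to 0.221). Prdm1, which encodes BLIMP1 and is a classical BCL6 target, read 4.31 in WT and 5.07 in cKO without a call, and Cd69, Bcl2 and Id2 had −0.02, −0.10 and 0.17. None of 14 BCL6 corepressor genes was called, and Tbl1xr1 had the highest value at 0.64.

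Called genes with roles in cell death, on no list and picked after their values were seen, were Mlkl and Casp8. Mlkl, the pore-forming protein of necroptosis, rose by 1.72 ± 0.32 and Casp8, an initiator of apoptosis that restrains necroptosis, by 0.91 ± 0.22. Mlkl lost its call without WT array 1 (adjusted p = 0.0526) and with the replicate block (adjusted p = 0.0739). Casp8, the smallest rise called, lost it in 17 of the 23 fits that left out 1 array. None of 13 BCL2 family genes was called; Bcl2l14 had 0.66 and Bid 0.39.

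The 2 falls were small. Dusp4, a phosphatase of MAP kinases, read 6.68, 7.11 and 6.97 in WT and 5.41, 5.70, 5.77 and 5.93 in cKO, and fell by 1.22 ± 0.27 (adjusted p = 0.0249). Itga3, an integrin chain for laminins, read 6.42, 6.42 and 6.20 against 5.38, 5.17, 5.51 and 5.42, and fell by 0.97 ± 0.21 (adjusted p = 0.0181). Groups did not overlap for either gene, and the cKO values, apart from Dusp4 on array 4, lay within the background range. Dusp4 lost its call in 5 fits that left out 1 array (adjusted p 0.0621 to 0.201) and Itga3 in 3 (0.0733 to 0.129).

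The lower genes next in order missed the threshold narrowly and passed it under some alternatives. Scin, an actin-severing protein, had −0.85 ± 0.21 (adjusted p = 0.0501), Rgs9, a regulator of G-protein signalling, −0.80 ± 0.19 (adjusted p = 0.0544) and Fcgr2b, the inhibitory Fc receptor, −1.08 ± 0.28 (adjusted p = 0.0754). Fcgr2b read 8.36, 8.54 and 8.84 in WT and 7.40, 7.32, 7.78 and 7.48 in cKO, and passed with the replicate block (adjusted p = 0.0156). Scin passed under 10 of its 36 alternatives (adjusted p 0.00111 to 0.626 over all of them), Rgs9 under 12 of 36 (0.00608 to 0.447) and Fcgr2b under 8 of 37 (0.00415 to 0.399). None of the other 7 Fc receptor genes tested was called. Dusp7, on the same list as Dusp4, had 1.48 without a call.

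Antigen presentation and maturation genes gave 1 call. None of 16 genes of MHC class II presentation was called, with a median of 0.00, and H2-Ab1 read 13.19 in both groups. Among 19 class I and cross-presentation genes, 1 was called: Cd1d1, the lipid-presenting molecule, rose by 1.15 ± 0.27 and lost its call in 5 fits that left out 1 array (adjusted p 0.0777 to 0.399). None of 19 costimulation and maturation genes was called, and Cd274, the inhibitory ligand PD-L1, had 0.85. None of 15 Toll-like receptor genes and adaptors was called, although 14 had a difference above 0 (93.3%, against 62.5% of all genes). The exception was Cd14 at −1.29. Within the 3 same-numbered pairs of arrays, 8, 13 and 9 of the 15 were above 0.

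Cytokine genes were not called in either direction among the 20 tested. Il6 had 2.22 ± 0.64 (adjusted p = 0.18), with 4.15, 4.60 and 6.77 in WT and 6.59, 6.67, 7.95 and 8.34 in cKO, so that WT array 3 overlapped with the cKO range. Tnfsf13b, which encodes the B-cell survival factor BAFF, had 1.69 ± 0.43 (adjusted p = 0.0792). Il12b, made by cDC1 on activation, read 9.96 and 9.94. Of 15 growth factor receptors only Csf1r was called, and Flt3, the receptor that maintains dendritic cells, had −0.33.

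Proliferation and energy genes gave 1 call as well. Of 28 cell cycle genes Ccnd2 was the 1 called, and Mki67 had −0.14. Of 27 oxidative phosphorylation genes none was called and 25 had a difference above 0 (92.6%, against 62.5% of all genes). Their median was 0.23 against 0.06 for all genes, and it was 0.20, 0.10 and 0.10 in the 3 same-numbered pairs. None of 13 glycolysis genes was called. None of 21 immediate-early and heat shock genes was called, with a median of −0.15 and −0.93 for Atf3.

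Marker genes of other cells gave few calls. Adgre1, which encodes F4/80 of macrophages, rose by 1.27 ± 0.30 as the 1 called of 12 red pulp macrophage genes, and lost its call in 11 fits that left out 1 array (adjusted p 0.0506 to 0.283). The summed macrophage list was 493 to 736 in WT and 491 to 811 in cKO, and C1qa, Cd163 and Slc40a1 were at background in both groups. Summed monocyte markers were 2676 to 3764 in WT and 1998 to 3817 in cKO, with Csf1r the 1 called of 10. None of the 9 T-cell, 5 plasma-cell, 6 neutrophil or 6 erythroid and platelet genes was called.

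Called genes often sat side by side in the genome. Of the 99, 18 (18.2%) had another called gene as their next tested gene on the chromosome, compared with 192 of the 12151 placed genes (1.58%). The groups were Pilra with Pilrb1 and Pilrb2, Cd209a with Cd209d and Cd209e, Clec4a2 with Clec4b2 and Clec4n, Gbp7 with Gbp3 and Gbp2b, P2ry13 with P2ry12, Treml2 with B430306N03Rik, and Ccl24 with Hip1. The Pilr, Cd209, Clec4, Gbp and P2ry groups are families of related genes, and probes of near copies may share RNA.

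The effect of genotype was then set against that in the other dendritic cells, which were measured on other arrays. The labels do not say whether same-numbered arrays of different cell types came from the same mice, but WT array 1 was high in Xist in all 3 (10.90, 11.28 and 11.89). The fit treats the arrays as independent. In cDC2, 141 genes were called higher (1.16%) and 49 lower (0.403%), and in pDC 4 were called higher (0.0329%). Of the 99 genes risen in cDC1, 40 also rose in cDC2, which is 40.4% of the cDC1 genes and 28.4% of the cDC2 genes, 1 rose in pDC (Oasl2), and 58 in neither. Their median difference was 0.81 in cDC2 and 0.18 in pDC, against 0.07 and 0.05 for all genes. The difference between the effects was called for 34 genes against cDC2 (0.28%) and for 40 against pDC (0.329%). Of the 99, 14 had a called difference against cDC2 and 38 against pDC, and 11 had one against both, of which Cd209a and Cd33 also rose in cDC2. All had the larger effect in cDC1, a direction that choosing genes by their rise in cDC1 favours. With the array set as a term those 34 and 40 calls became 95 and 68, and with same-numbered arrays as a random block across cell types (consensus correlation 0.44) 109 and 83. All 34 and 40 were among them both times.

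Ccl24 differed from both other cell types. Its mean level was 4.79 in WT cDC2 and 5.20 in cKO cDC2, and 4.88 and 4.97 in pDC. The effect in cDC1 exceeded that in cDC2 by 6.04 ± 0.34 (adjusted p = 1.20e-10) and that in pDC by 6.36 ± 0.34 (adjusted p = 4.06e-11). Only cKO cDC1 stood above background for this gene among the 6 groups.

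Cybb, Cd300lf and Cd22 rose in cDC1 where the other conventional subset already had them. Cybb had 9.55 in WT cDC2 and 10.31 in cKO cDC2, Cd300lf 8.79 and 8.71, and Cd22 8.57 and 7.91. The effects exceeded those in cDC2 by 3.45 ± 0.48, 2.92 ± 0.41 and 2.89 ± 0.37 (adjusted p = 4.82e-04, 4.82e-04 and 1.85e-04). Tgm2 and Lair1 moved in opposite directions. Tgm2 rose by 1.57 ± 0.23 in cDC1 and fell by 1.59 ± 0.22 in cDC2 from 9.92 to 8.33, a difference of 3.16 ± 0.32 (adjusted p = 5.84e-06). Lair1 rose by 1.23 in cDC1 and fell by 1.05 in cDC2, a difference of 2.28 ± 0.30 (adjusted p = 2.44e-04).

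Pilra, Capg, Cd209d and S100a10 rose in both conventional subsets. Their differences in cDC2 were 4.98, 4.55, 5.49 and 2.37, beside 6.29, 5.04, 4.97 and 4.24 in cDC1, and no difference between the 2 effects was called for these 4 genes. In pDC their differences were 0.13, 0.74, −0.46 and −0.02, and the effect in cDC1 was larger by 6.16 ± 0.57, 4.30 ± 0.54, 5.43 ± 0.51 and 4.26 ± 0.66. The pDC of WT mice already had Capg at 8.73, Cd209d at 11.14 and S100a10 at 10.41.

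The interferon lists were above 0 in all 3 cell types. The antiviral genes had medians of 0.90 in cDC1, 0.61 for the cDC2 arrays and 0.84 for pDC. Above 0 were 28, 29 and 29 of the 29 genes, and 5, 0 and 1 were called. Of all 12157 genes, 7593, 7781 and 7214 were above 0 in the 3 cell types. The GTPases had 1.53, 0.89 and 0.61, with 9, 9 and 8 of 9 above 0 and 3, 3 and 0 called. No gene of either list had a called difference between cDC1 and cDC2 or pDC.

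**Figure D5:**
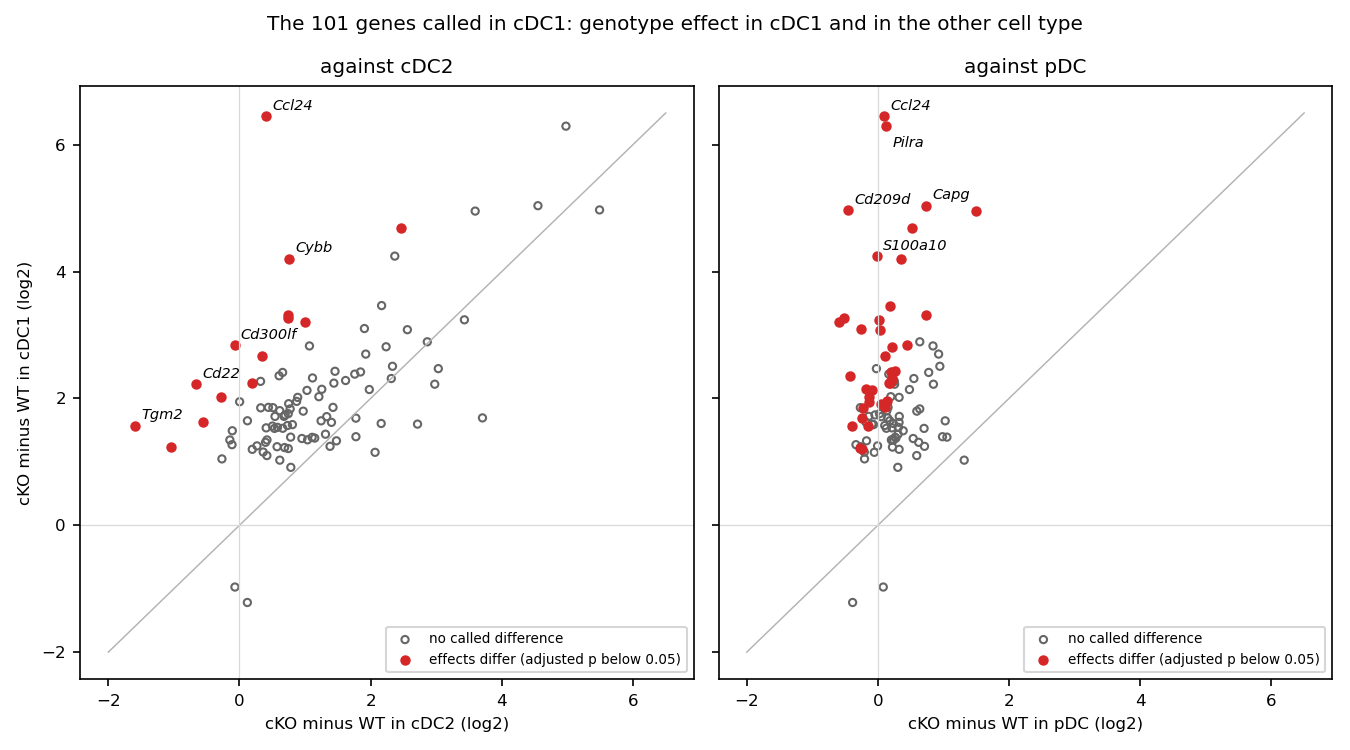
Genotype difference in cDC1 (vertical, log2) against that in cDC2 (left) and in pDC (right) for the 101 genes called in cDC1; the line marks equal effects, and filled points have a called difference between the effects. Against cDC2, 14 genes are filled and many others lie near the line, and against pDC 38 are filled and most points stand near 0 on the horizontal axis.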

How the data were processed

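Per the submitters' processing notes, the arrays were processed with Affymetrix Expression Console and RMA (versions not given in the sources used here). The deposited intensities are on a linear scale (3.785 to 13980.744), so log2 was taken. Of 28853 probe sets, 21789 named 1 gene and 1621 several, which were left out, and 21698 matched RefSeq. A gene was represented by its probe set of highest mean. Genes above the array median on 3 or more arrays were fitted with limma 3.58.1 (R 4.3.3) on 6 group means, 23 arrays and 17 residual degrees of freedom, with Benjamini-Hochberg adjustment. The number of arrays limits the precision.

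Same-numbered WT and cKO cDC1 arrays deviated together (correlation across genes 0.439 to 0.537), so the numbers were taken to pair them, and fits with the number as a block were run. WT array 3 correlated more with cKO array 4 (0.581), which has no partner of its number, and the block fit leaves 2 residual degrees of freedom. Replicate numbers come from the sample titles. Named in full were Bcl6, the 20 largest rises, the falls with the next lower genes up to 5, called list members, up to 2 members of lists without a call, and the 5 largest called differences from each other cell type. Members, lists and motifs were chosen with earlier results of these data known. Other normalizations, filters, weights and left-out arrays were tried. Promoter letters are RefSeq's.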

Additional observations from a re-analysis of the deposited data

Results flagged for a closer look

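Among 105 named genes, 1 array stood apart on 4 within the cKO cDC1 group, by a gap that is large against the group's range. Chance gives such a gap in about 1 in 20 independent groups. Genes share the same arrays and are not independent, so the count of 4 cannot be set against that rate. The array was cKO array 2 each time, with the lowest level: Pilrb1 at 9.52, Xaf1 at 5.08, Pla2g4a at 7.07 and Trabd2b at 7.39.

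The test of the difference between genotype effects called 34 genes against cDC2 and 40 against pDC, and the 5 largest of each among the genes called in cDC1 are given here. Against cDC2 the effect was larger by 6.04 for Ccl24, 3.45 for Cybb, 3.16 for Tgm2, 2.92 for Cd300lf and 2.89 for Cd22. Against pDC it was larger by 6.36 for Ccl24, 6.16 for Pilra, 5.43 for Cd209d, 4.30 for Capg and 4.26 for S100a10. The largest and smallest adjusted p (limma) among these 10 differences were 0.00102 and 4.06e-11.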

How the results depend on the processing

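No called gene reversed its direction under any of 37 alternatives. That was largely fixed in advance, since the groups of no called gene overlapped. Fits without a cDC2 or pDC array leave the cDC1 difference itself unchanged. Of the 101 calls, 53 were kept under all 37. Bco2, Gm10791 and Hacd4 were kept under the other 36 and were not tested with the stricter filter. Genes called lower (2) became 10 with the replicate block, 8 with quantile normalization, 10 with median centring, 4 without the filter on low values, 1 with a filter at 2 times the array median, 16 with array weights, 4 with trend and robust moderation, 14 with array set as a term and 1, neither Dusp4 nor Itga3, without the arrays high in Xist. Genes called higher (99) became 138 with the block and 255 with array weights. They became 88 with the cDC1 arrays alone, with 78 of the 99 kept, and 67 without the arrays high in Xist. An alternative chosen after seeing the data, the replicate block with cKO array 4 joined to number 3, gave 205 higher and 42 lower. Differences from cDC2 (34) became 109 with a random replicate block across cell types, 72 with array weights, 95 with array set as a term and 17 without the arrays high in Xist; those from pDC (40) became 83, 56, 68 and 24. Leaving out 1 array gave 65 to 104 higher genes (lowest without WT cDC1 array 2), 0 to 4 lower (none without cKO cDC1 array 2), 22 to 37 differences from cDC2 and 30 to 43 from pDC. The all-gene median of 0.06 became 0.22 with array weights, 0.18 without WT cDC1 array 3 and −0.02 without WT cDC1 array 2. The cDC2 identity median of 0.12 became 0.40 with array weights. Fewer samples enter the fits without arrays; other causes were not tested. The number of arrays and signals near background limit what can be called.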
